A study of Mus musculus with 41 samples.

Results

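Natural killer (NK) cells and killer T cells keep their weapons in cytotoxic granules, and mast cells of some tissues store one of the same proteases. Described here are 5 genes of that machinery, Gzma, Gzmb, Gzmc, Prf1 and Nkg7, in the small intestine of mice with food allergy and in cultured group 2 innate lymphoid cells (ILC2s). The members were chosen by name and are 5 of the 19221 genes of the single-cell matrix and 5 of the 23420 genes of the bulk table. No member was used to gate a cell type.

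All mice were female wild-type BALB/cJ. For the single cells, food allergy mice, in which ovalbumin set off the inflammation, were compared with control mice, all 10 weeks old, in 3 collections of droplet libraries. Lamina propria cells of the sort named nonTB came from 3 food allergy and 3 control libraries over 2 dates, and lamina propria cells of the sort named IgDLow from 1 food allergy and 1 control library. Peyer's patches, lymphoid tissue in the wall of the gut, supplied 10 food allergy and 10 control libraries over 5 dates, of which 1 food allergy library held no cell in the matrix. Titles of dates 1 and 2 name location and end in codes with D, I or J, and the library without cells is the D library of date 1. Sums over a date pool these codes. The labels do not define the sorts, nor do they say that libraries came from separate animals, and p-values here reflect how much these libraries vary, which could be technical alone. For the bulk libraries, KLRG1+ ILC2s were sorted by flow cytometry from mice of 8 weeks and cultured, 250 cells each, for 3 hours in base medium, which held 100 ng/ml of IL-2 and as much IL-7. To this were added IL-25 at 100 ng/ml with the neuropeptide α-CGRP at 0.4 μg/ml (3 libraries), CGRP alone (4 libraries), IL-25 alone (3 libraries) or nothing (base medium, 3 libraries).

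Perforin, the product of Prf1, forms pores in the membrane of a target cell, and granzymes, serine proteases packed in the granule, enter through them. Granzyme B, from Gzmb, cleaves after aspartate and starts apoptosis. Granzyme A, from Gzma, is a tryptase that also acts outside cells. Granzyme C, from Gzmc, is a mouse granzyme encoded beside Gzmb, and Nkg7 encodes a granule membrane protein that takes part in granule release. ILC2s are known for type 2 cytokines rather than killing, and mucosal mast cells for chymases such as those of Mcpt1 and Mcpt2.

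In mm10 with the GENCODE M21 annotation, Gzma lies at chr13:113093825-113100981 on the minus strand, Gzmb at chr14:56258838-56262260 and Gzmc at chr14:56231441-56234656, both on the minus strand, Prf1 at chr10:61297833-61304680 and Nkg7 at chr7:43437073-43438249, both on the plus strand. The 250 bases before the RefSeq start of Gzma and of Gzmb (GRCm38.p6, from RefSeq) are shown because these were the members whose levels moved most between conditions. They span chr13:113100982-113101231 and chr14:56262335-56262584, both on the minus strand, and are written 5′ to 3′. Capitals mark the letters TGTGGT (RUNX motif, either strand, so also its complement ACCACA) and TGAGTCA (AP-1 motif).
Gzma: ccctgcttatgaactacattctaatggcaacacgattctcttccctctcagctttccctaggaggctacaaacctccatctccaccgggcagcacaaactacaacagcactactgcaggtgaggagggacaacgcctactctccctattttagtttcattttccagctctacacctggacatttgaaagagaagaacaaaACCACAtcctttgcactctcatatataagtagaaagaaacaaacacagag
Gzmb: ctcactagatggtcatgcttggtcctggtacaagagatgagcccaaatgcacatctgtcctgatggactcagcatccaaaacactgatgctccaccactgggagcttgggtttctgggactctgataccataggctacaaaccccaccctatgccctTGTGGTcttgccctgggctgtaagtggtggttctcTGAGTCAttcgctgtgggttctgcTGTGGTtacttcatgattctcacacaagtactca
All 5 members held TGTGGT in this window, against 14.05% of the 32851 mouse promoters of the same table. It lay 50 bases before the start in Gzma, 93 and 34 in Gzmb, 174 and 108 in Gzmc, 130 in Prf1 and 83 in Nkg7. The AP-1 letters stood 58 bases before the start of Gzmb alone among the members and were in 4.46% of all promoters. The cyclic AMP response element TGACGTCA lay 57 bases before the start of Gzmc and was in 1.55% of promoters. The T-box letters AGGTGTGA and the STAT letters TTCNNNGAA were found in Nkg7, 14 and 220 bases before the start, and in 1.12% and 7.02% of promoters. The GATA letters AGATAA, in 9.99% of promoters, were in none of the 5 windows. None of these matches overlapped another. All distances are from the RefSeq starts, which can differ from the GENCODE positions above. The Gzmb window, from chr14:56262335, lies clear of the GENCODE gene, which ends at 56262260. The Nkg7 window ends at chr7:43437137, inside the GENCODE gene that starts at 43437073. The T-box match of Nkg7 thus lies inside the gene as GENCODE places it.

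The matrix held 58067 cells of 27 libraries, with 379 to 3891 cells and 1115608 to 18742802 unique molecular identifiers (UMIs, each standing for 1 captured RNA molecule) per library. Of 55713 distinct cell barcodes, 2180 (3.91%) occurred in more than 1 library. Cells were classed by fixed marker gates into 1086 NK cells, 1788 ILC1s, 1752 ILC2s, 3843 ILC3s, 1229 mast cells, 2315 CD8 T cells, 2695 CD4 T cells and 270 γδ T cells, while 21479 cells met no gate and 852 met several. A gate is a rule on markers, not a sort, and genes it did not use tested the labels. Il13 or Il5, the ILC2 cytokines, were detected in 37.8% of ILC2-gated cells, and the mast cell chymase Mcpt4 in 82.4% of mast-gated cells. These shares pool both conditions, and most mast-gated cells came from food allergy libraries. The T cell receptor genes Cd3g, Trbc1 or Trbc2 had a UMI in 88.0% of NK-gated, 93.6% of ILC1-gated and 93.0% of ILC2-gated cells, although Cd3e, Cd3d and Trac had to be at 0 there. The part that T cells with an undetected receptor have in these classes was not tested. Levels below are UMIs of the gene per 1000000 UMIs of the class (CPM), summed over the cells of a library in the lamina propria and over the libraries of a date in the Peyer's patches. Intervals on counts cover counting error only.

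Among lamina propria classes with at least 10 cells in each library, Gzma, Prf1 and Nkg7 stood highest in NK cells, Gzmb in mast cells and Gzmc in ILC3s. In the lamina propria, Gzma averaged 15800 ± 1057 CPM in NK cells with food allergy and 9573 ± 2762 CPM in control NK cells (SD, n = 3 libraries each, as below). ILC1s, the tissue-resident relatives of NK cells, came next with 315 ± 172 CPM with food allergy and 410 ± 108 CPM in controls. NK values did not overlap those of ILC1s in either condition. Below NK cells, the ranges of ILC1s and mast cells with food allergy each overlapped that of ILC3s, as did the range of ILC2s. A Gzma UMI was found in 95.9% of 74 NK cells with food allergy and in 88.7% of 53 control NK cells.

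Free RNA sets a floor to such shares. Plasma cells, which should lack these genes, held a Gzma UMI in 12.1% of cells with food allergy and 8.09% in controls at medians of 10610 UMIs per cell with food allergy and 10470 in controls. With each cell thinned to 1000 UMIs those shares were 1.36% with food allergy and 1.09% in controls. Thinned shares of lamina propria ILC2s were 2.18% with food allergy and 2.02% in controls. NK cells kept thinned shares of 94.3% with food allergy and 87.9% in controls, while ILC2s stood close to the plasma cell values.

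Gzmb reached 2327 ± 641 CPM in lamina propria mast cells with food allergy and 6079 ± 849 CPM in control mast cells. NK cells had 1059 ± 109 CPM with food allergy and 939 ± 349 CPM in controls. In both conditions the mast cell range lay above the NK range. Basophil-gated cells, too few to rank, had 9 Gzmb UMIs in 1 cell with food allergy (3130 CPM) and 99 in 2 control cells (16340 CPM), both levels above those of mast cells. ILC2s had 104 ± 27.4 CPM with food allergy and 3.04 ± 5.26 CPM in controls. ILC1s had 34.9 CPM with food allergy and 71.1 CPM in controls, and ILC3s 16.3 ± 15.1 CPM with food allergy and 55.0 ± 13.8 CPM in controls. ILC2s thus stood above ILC1s and ILC3s with food allergy and below them in controls, without overlap of ranges in either condition. Plasma cells held a Gzmb UMI in 0.264% of cells with food allergy and 0.0251% in controls, after thinning.

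Gzmc had its highest mean in ILC3s, with 53.5 ± 21.2 CPM with food allergy and 52.8 ± 20.1 CPM in controls. ILC1s had 31.9 CPM with food allergy and 14.7 CPM in controls. Few cells carried it: 23 of 369 ILC3s (6.23%) with food allergy and 30 of 526 (5.70%) in controls. Prf1 was sparse even in NK cells, with 65.0 ± 32.8 CPM with food allergy and 15.1 ± 26.1 CPM in controls. These values rest on 11 UMIs with food allergy and 1 in controls, a ratio per total of 7.19 with an exact interval of 1.04 to 309. Lamina propria mast cells had 0 Prf1 UMIs in both conditions. Nkg7 was broader, with 3682 ± 634 CPM in NK cells with food allergy and 3547 ± 414 CPM in control NK cells. ILC1s had 1189 ± 184 CPM with food allergy and 1640 ± 104 CPM in controls, and ILC2s 429 ± 144 CPM with food allergy and 663 ± 69.3 CPM in controls. That order, NK above ILC1 above ILC2, held without overlap of ranges in both conditions.

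**Figure D1:**
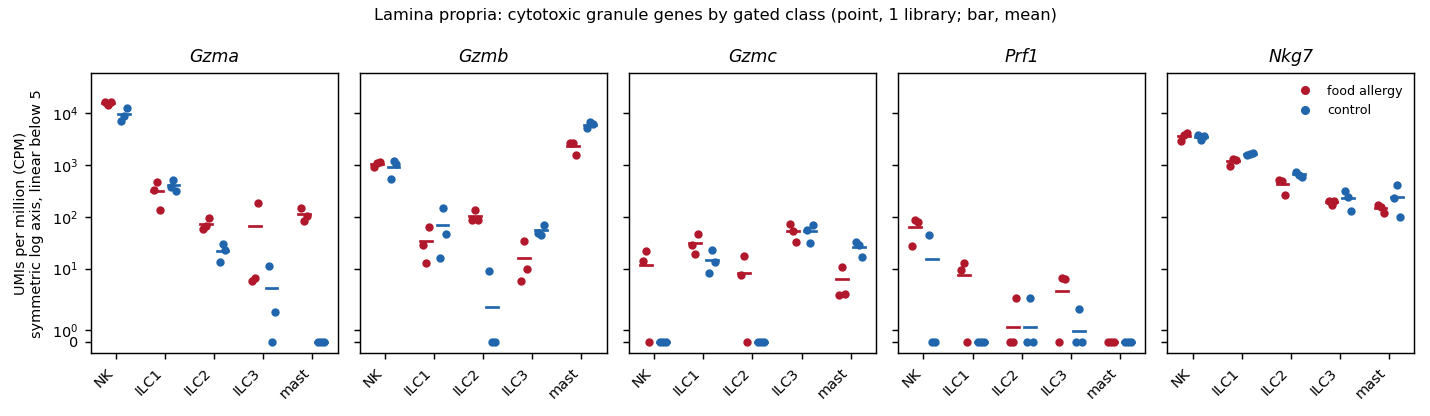
Level of each granule gene in the lamina propria by gated class, in CPM on a symmetric log axis that is linear below 5. Points are libraries, red for food allergy and blue for control, and bars are means of 3; Gzmb is highest in mast cells and, in ILC2s, food allergy points lie near 100 CPM with control points at 9.11 or 0.

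In the Peyer's patches, where T cells could be added, Gzma was again highest in NK cells and Gzmb in mast cells, by their means over dates with at least 10 cells. These dates could differ between conditions: ILC2 means cover dates 3, 4 and 5 with food allergy and dates 1, 4 and 5 in controls. Gzma averaged 9822 ± 4101 CPM in NK cells with food allergy (n = 4 dates) and 5756 ± 867 CPM in control NK cells (n = 3). In γδ T cells it was 3489 ± 4253 CPM with food allergy (n = 5) and 4302 ± 1674 CPM in controls (n = 3), which overlapped the NK range in both conditions. ILC1s had 903 ± 269 CPM with food allergy (n = 4) and 487 ± 433 CPM in controls (n = 3), and ILC2s 185 ± 37.7 CPM with food allergy and 64.9 ± 43.8 CPM in controls (n = 3 each). NK cells and γδ T cells thus had the highest means of Gzma in both conditions. Gzmb reached 1980 ± 236 CPM in mast cells with food allergy and 5027 ± 3742 CPM in control mast cells (n = 2 each). NK cells had 931 ± 379 CPM with food allergy and 444 to 641 CPM in controls. Prf1 reached 112 ± 91.5 CPM with food allergy and 76.9 ± 49.4 CPM in control NK cells, and its UMIs were in 23.8% of NK cells with food allergy and 16.5% in controls. Perforin RNA was thus detected in a minority of NK cells. Gzmc in ILC3s was 64.2 ± 36.3 CPM with food allergy and 36.2 ± 38.3 CPM in controls. Nkg7 had 3589 ± 581 CPM in NK cells with food allergy and 2784 ± 387 CPM in control NK cells, and 352 CPM in ILC2s with food allergy and 427 CPM in control ILC2s.

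**Figure D2:**
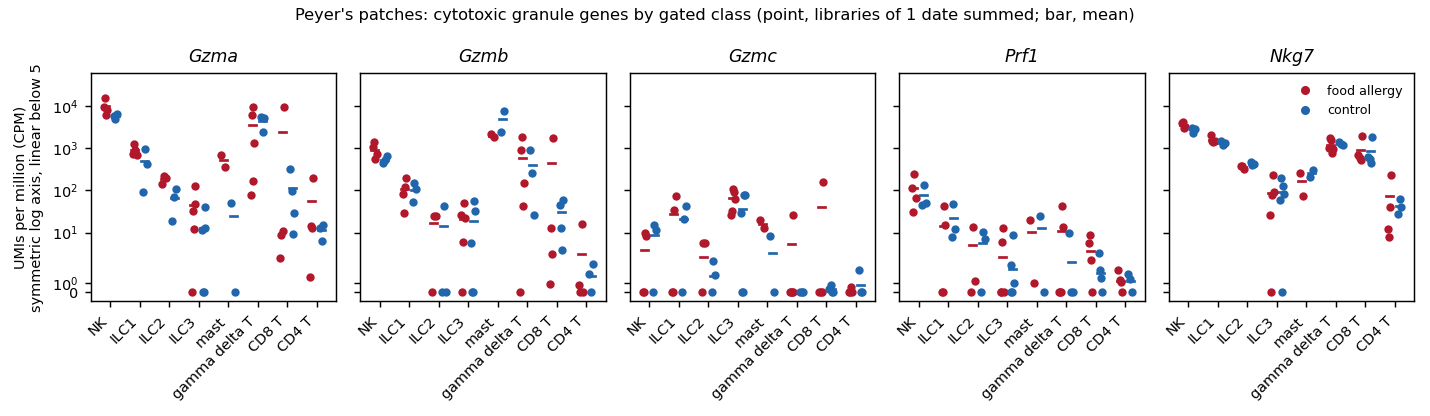
The same plot for the Peyer's patches, with each point the summed libraries of 1 date and T cell classes added. Gzma and Gzmb in CD8 T cells with food allergy have 1 date far above the others, 9509 and 1723 CPM.

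In NK cells, UMIs of Gzma and Gzmb were often found in the same cell. With food allergy, 43 of 74 lamina propria NK cells carried both Gzma and Gzmb, 28 Gzma alone, 0 Gzmb alone and 3 neither. Among 53 control NK cells, 36 carried both, 11 Gzma alone, 0 Gzmb alone and 6 neither. So every NK cell of the lamina propria with a Gzmb UMI also had a Gzma UMI, in both conditions. Only 3 of 74 NK cells with food allergy and 6 of 53 in controls lacked Gzma. Whether the overlap exceeded what these shares alone would give was not tested. In the Peyer's patches, 179 of 534 NK cells with food allergy had both, 235 Gzma alone and 11 Gzmb alone, against 130, 151 and 10 of 381 control NK cells. Of Peyer's patch NK cells with a Prf1 UMI, 121 of 127 with food allergy and 59 of 63 in controls also had a UMI of Gzma or Gzmb. Neither granzyme was found in 109 of all 534 NK cells there with food allergy and 90 of 381 in controls. The part of depth per cell in these overlaps was not tested.

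The genes whose levels over classes were most like each member were sought among all others. Over 53 profiles of class, tissue and condition, taken on log2(CPM + 1) among 11585 genes, Gzma was most like Ccl5 (Pearson's r = 0.80), a chemokine of killer lymphocytes, then Samd3 (0.79) and Sytl2 (0.77). Gzmb was most like Cst7 (r = 0.87), which encodes cystatin F, an inhibitor of granule cathepsins. Gzmc was most like Scarf2 (r = 0.84) and Fhl2 (0.83), Prf1 like Klrb1c (r = 0.83), the NK1.1 antigen gene, and Nkg7 like Txk (r = 0.90), a kinase of lymphocytes. The members were less like one another: the highest pair was Gzma with Nkg7 (r = 0.77) and the lowest Gzmb with Prf1 (0.39). Profiles of 1 tissue and condition share libraries and depth, so these values are descriptions.

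NK cells of the lamina propria exceeded ILC1s in the 3 members that could be tested. Gzma was higher by 5.15 ± 0.22 on the log2 scale (SE, adjusted p = 2.97e-13, edgeR quasi-likelihood test over all genes, n = 6 libraries of both conditions, each a block), Gzmb by 4.36 ± 0.27 (adjusted p = 2.18e-10) and Nkg7 by 1.43 ± 0.11 (adjusted p = 2.73e-09). This contrast called 28.6% of 1270 genes, 13.9% higher and 14.6% lower. Of 7 granule content genes measured, 1 was higher, Cst7 by 1.25, and 1 lower, Cd160 by -1.40, which encodes a receptor of innate killer cells. Genes called granzyme inhibitors here and below come from a list of granzyme and perforin inhibitors and protective genes. Whether each blocks a granzyme was not tested. Of 4 measured, 2 were lower in NK cells: Serpinb1a, whose product inhibits neutrophil and granule proteases, by -4.87 and Serpina3g by -2.17. Of 9 regulators, Tbx21, Il18r1, Id2 and Runx3 were lower, and Eomes, which the gate used, was higher. Gzma and Gzmb were thus higher in NK cells and these 2 genes of the inhibitor list lower, while the rest of that list was not called. Of 11 RNA quality genes 3 were lower in NK cells, as was 1 of 2 T markers measured, Trbc2 by -1.54, and of 8 type 1 markers 3 were higher and 3 lower; the part of these in the members' differences was not tested.

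ILC2s of the lamina propria were compared with ILC3s in the same way. Nkg7 was higher in ILC2s by 1.67 ± 0.17 (edgeR adjusted p = 2.03e-07, n = 6 libraries), where 36.4% of 3554 genes were called, 20.3% higher and 16.1% lower. Gzmb, higher by 0.63 in ILC2s, was not called over both conditions together (adjusted p = 0.490), and was lower by -0.17 with DESeq2. All 4 inhibitors measured were lower in ILC2s, among them Serpinb1a by -2.80, Serpinb6b by -2.14 and Serpinb9, the gene of the granzyme B inhibitor, by -1.25. Of 7 granule content genes, Srgn, the proteoglycan core on which granzymes are packed, was higher by 1.35, and Ctsw, Cd160, Ctsh and Lamp1 were lower. All 3 T markers measured were higher in ILC2s, among them Cd3g by 3.12 (median of the 3, 0.95), as were 9 of 11 RNA quality genes, and their part in the Nkg7 difference was not tested.

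Gzmb was higher with food allergy in ILC2s of the lamina propria, where controls had next to none. The 3 food allergy libraries held 24, 47 and 23 Gzmb UMIs (89.0, 136 and 87.8 CPM) in ILC2s, against 2, 0 and 0 (9.11, 0 and 0 CPM) in the 3 control libraries. The groups did not overlap. The sums of 94 and 2 UMIs gave a ratio per total of 37.4 with an exact interval of 10.1 to 314. In the fit over all genes, which called 18.7% of 3173 genes (11.1% higher, 7.63% lower), Gzmb was higher by 5.12 ± 0.56 (edgeR adjusted p = 1.86e-07), a fold that rests on 2 control UMIs and is no bound. Gzmb passed the filter on low counts only through the food allergy libraries, where it was high. The p-value is thus no support beyond the counts themselves. In the IgDLow sort, with 1 library a group and so no test, ILC2s held 22 Gzmb UMIs in 90 cells with food allergy and 1 in 72 control cells, a ratio of 14.05 (2.27 to 580).

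The Gzmb RNA sat in few ILC2s. A UMI was found in 26 of 526 ILC2s with food allergy (4.94%, or 4.24% thinned to 1000 UMIs) and in 2 of 419 control ILC2s (0.477%, or 0.0490% thinned). Of the 94 UMIs, 81 were in 15 cells with at least 3 each. Those 15 cells had a median of 1730 UMIs, against 1599 in ILC2s without Gzmb, and ILC2 markers of 7908 CPM against 6549 CPM. Without the cells with the most Gzma and the most Gzmb in each library, 65 UMIs with food allergy and 1 in controls were left. The call held then (adjusted p = 1.02e-05, an alternative chosen after the data were seen) and in all 15 alternatives run, with log2 values of 4.43 to 7.87. These alternatives reuse the same counts and are no separate support.

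Mast cell RNA was also higher in these ILC2 sums. Summed mast markers were 122 to 179 CPM with food allergy and 38.0 to 50.9 CPM in controls, with 7 of 11 markers detected with food allergy and 3 in controls. The defining markers Cpa3, Fcer1a, Ms4a2 and Tpsab1 were at 0 in both, the first 3 because the gate required it. Gzmb had 3.48 UMIs per Mcpt1 UMI in ILC2s with food allergy and 0.0876 in mast cells of those libraries, where Mcpt1 was the most abundant chymase gene. Of 26 Gzmb-positive ILC2s, 25 had no UMI of Mcpt1 or Mcpt2. The gate had left out cells with a UMI of the NK-associated genes Ncr1, Klre1 or Eomes, so levels of NK markers in these sums give no measure of NK cell RNA. Prf1 had no UMI in the 26 cells, and 17 of the 26 had an Nkg7 UMI. Type 1 markers were 191 to 217 CPM with food allergy and 82.0 to 125 CPM in controls. The part of mast cell or NK cell RNA in the Gzmb of ILC2s was not tested.

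The other members moved less clearly in lamina propria ILC2s. Gzma had 16, 23 and 25 UMIs (59.3, 66.4 and 95.4 CPM) with food allergy and 3, 8 and 5 UMIs (13.7, 30.4 and 23.1 CPM) in controls. It was called higher by 1.78 ± 0.36 (edgeR adjusted p = 0.000769), yet the share of cells with a UMI was 3.04% with food allergy and 3.10% in controls. Like Gzmb, Gzma passed the filter on low counts only through the food allergy libraries. The difference lay in 4 cells with food allergy that held 49 of the 64 UMIs, up to 22 in 1 cell, against at most 2 in any control cell. Without the top cells 18 UMIs with food allergy and 10 in controls remained, too few to pass the filter, and the IgDLow ILC2s held 2 UMIs with food allergy and 3 in controls. Gzmc had 8 UMIs with food allergy and 0 in controls, at least 2.12-fold higher against a floor of 3 UMIs over the group.

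Nkg7 went the other way in the same cells. It had 526, 497 and 263 CPM in ILC2s with food allergy and 738, 649 and 601 CPM in control ILC2s, without overlap. Nkg7 was called lower by -0.53 ± 0.15 (edgeR adjusted p = 0.0154). This call was lost with DESeq2 (adjusted p = 0.167), without the date term (0.159) and without the third library of food allergy (0.142), control library 1 (0.0668) or the third control library (0.125). A UMI was found in 42.6% of ILC2s with food allergy and 56.1% of control ILC2s. The IgDLow libraries had 63 Nkg7 UMIs with food allergy and 89 in controls, a ratio of 0.452 (0.322 to 0.631).

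Genes around the granule were mixed in lamina propria ILC2s. Of 5 granule content genes measured, Srgn rose by 1.52 (adjusted p = 6.44e-11) and no other was called. Of 4 granzyme inhibitors measured, 3 rose: Serpinb1a by 2.00, Serpina3g by 1.13 and Serpinb6b by 0.98. Release genes, which tether and fuse granules at the membrane, gave 0 calls of 5. Of 8 regulators, Stat4 rose by 1.34, Il2rb by 1.12 and Il2ra by 0.70, the last pair being chains of the IL-2 receptor, and Runx3, a transcription factor of killer lymphocytes, fell by 0.84. Medians were 1.05 for the inhibitors and -0.41 for the release genes, against a median near 0 over all 3173 genes (-0.00054). Of 11 RNA quality genes, 5 were higher, among them mt-Co1 by 0.38, and their part in these results was not tested.

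In mast cells of the lamina propria, Gzmb and Gzma went in opposite directions. Food allergy libraries held 310, 248 and 178 mast cells and control libraries 18, 10 and 20, so the control values rest on 48 cells. Gzmb had 2661, 2732 and 1587 CPM with food allergy, against 5140, 6795 and 6301 CPM in controls. All food allergy values lay below all control values. Gzmb was lower by -1.16 ± 0.25 (edgeR adjusted p = 0.0102, with 4.13% of 4258 genes called, 3.08% higher and 1.06% lower), and without control library 3 this was no longer called (0.0885). The share of mast cells with a Gzmb UMI was 73.0% of 736 with food allergy and 70.8% of 48 in controls, at medians of 3250 UMIs per cell with food allergy and 2431 in controls. Thinned to 1000 UMIs, the shares were 60.5% with food allergy and 67.7% in controls. Of Gzmb-positive mast cells, 21 of 537 with food allergy and 11 of 34 in controls had no UMI of Mcpt1 or Mcpt2. The gated cells may thus differ in make-up between conditions, and the part of this in the Gzmb difference was not tested. In the IgDLow sort, 182 mast cells had 1687 CPM with food allergy and 22 had 7022 CPM in controls.

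Gzma was detected in mast cells of the food allergy libraries, with 146, 75 and 75 UMIs, against 0 in each control library. Against a floor of 3 UMIs over the control group it was at least 5.86-fold higher, and it was called (edgeR adjusted p = 0.00916; 0.0562 without control library 1). Without any 1 of the food allergy libraries it no longer passed the filter on low counts. Gzma thus entered the test only through the group where it was high, and the p-value is no support beyond the counts themselves. It was found in 40 of 736 mast cells with food allergy (5.43%, or 3.58% thinned) and in 0 of 48 control mast cells, a count that allows a share of cells with a UMI of up to 6.25%. Of 296 UMIs, 272 lay in 20 cells, whose type 1 markers came to 95.4 CPM, against 33.4 CPM in mast cells without Gzma of the same libraries. The IgDLow sort did hold Gzma in mast cells of both libraries, 77.0 CPM with food allergy (64 UMIs) and 58.4 CPM in controls (5 UMIs, in 2 of 22 cells, or 9.09%).

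The mast cells differed beyond granzymes. Of 11 mast markers, 8 were higher with food allergy, among them the tryptase gene Tpsb2, the chymase genes Cma1 by 3.14 and Mcpt2 by 2.02, and the carboxypeptidase gene Cpa3 by 1.45. Since the gate counts these markers, their calls describe the gated cells. Gzmb per Mcpt1 UMI was 0.101, 0.0982 and 0.0570 with food allergy and 0.235, 0.608 and 0.510 in controls, and per Cpa3 UMI it was 0.203, 0.216 and 0.174 with food allergy and 1.27, 1.49 and 0.938 in controls. Neither ratio overlapped between conditions. Mcpt8, a protease gene of basophils, followed Gzmb, with 639, 412 and 338 CPM with food allergy and 1391, 1655 and 1173 CPM in controls. Of 6 granule content genes measured, Cst7 rose by 1.39, Ctsc, the cathepsin that activates granzymes, by 1.17 and Srgn by 0.99. Of 3 inhibitors, Serpinb1a rose by 1.44, and of 8 release genes none was called.

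**Figure D3:**
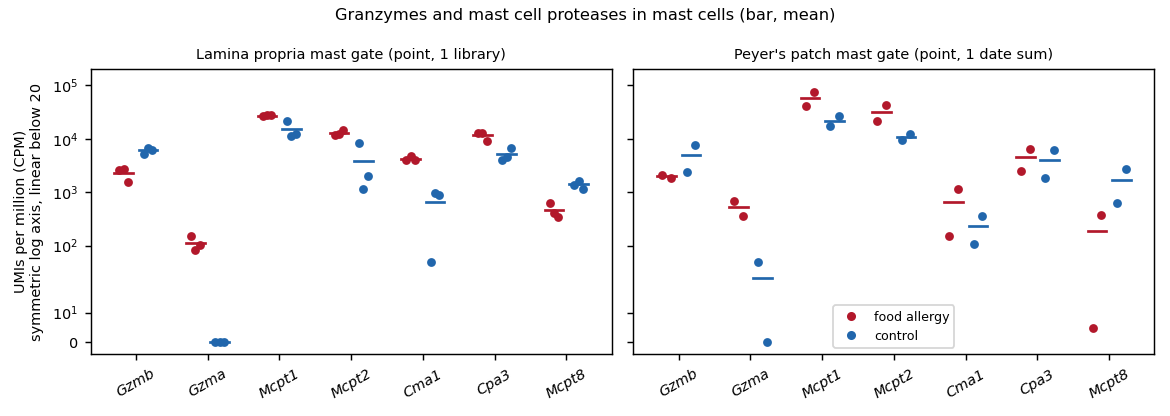
Granzyme and mast cell protease levels in mast-gated cells, in CPM on a symmetric log axis that is linear below 20. Points are libraries in the lamina propria and date sums in the Peyer's patches; in the lamina propria Gzmb and Mcpt8 lie lower with food allergy (red) than in controls (blue), and Gzma is at 0 in the 3 control libraries.

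In the lamina propria, Gzmb was higher with food allergy in ILC2s and lower in mast cells. The food allergy effect in ILC2s exceeded that in mast cells by 6.28 on the log2 scale (edgeR adjusted p = 5.42e-10, with 2.71% of 4094 genes called) and that in ILC3s by 6.96 (adjusted p = 7.43e-08, with 3.39% of 4538 genes called). Both tests of the difference were added after the data were seen. Their ILC2 side rests on the same 2 control UMIs, so the sizes are no bounds and the p-values are no support beyond the counts themselves. In ILC3s, Gzmb had 1, 5 and 3 UMIs with food allergy and 13, 16 and 27 UMIs in controls. It was lower there by -1.94 but was not called (adjusted p = 0.0737, with 0.995% of 4221 genes called), except without a filter on low counts (0.00535) and without food allergy library 2 (0.0490). Gzma in ILC3s had 1, 1 and 57 UMIs with food allergy and 3, 0 and 1 UMIs in controls, and 55 of those UMIs came from 1 cell.

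NK cells and ILC1s of the lamina propria showed no member called between conditions. Gzma in NK cells had 16450, 14580 and 16380 CPM with food allergy and 7148, 8990 and 12580 CPM in controls, which do not overlap. The difference of 0.72 had an adjusted p of 0.283 in edgeR, which called 0 of 752 genes (0%, and 6.78% at an unadjusted p under 0.05). With 1 UMI of exclusion markers allowed, it was called (adjusted p = 0.00351). In ILC1s, where 1.89% of 2112 genes were called, Nkg7 was lower by -0.45 with an adjusted p of 0.0949. Gzma in ILC1s was lower by -0.43 and not called (adjusted p = 0.572), but higher by 0.95 and called with 1 UMI of exclusion markers allowed (0.0307), and higher by 0.05 with 1 gate marker more, so its direction depended on the gate. Of 11 regulators there, Bhlhe40 fell by 0.93 and no other was called.

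In Peyer's patches, Gzma was called higher with food allergy in ILC2s and mast cells. ILC2s had 216 and 196 CPM of Gzma on the 2 testable dates with food allergy and 70.6 and 105.5 CPM in controls, a difference of 1.21 ± 0.25 (edgeR adjusted p = 0.00296, with 2.61% of 4715 genes called). A UMI was found in 65 of 350 ILC2s with food allergy (18.6%, or 8.17% thinned) and in 38 of 295 control ILC2s (12.9%, or 5.16% thinned). Plasmacytoid dendritic cells, which should lack it, had thinned shares of 2.58% with food allergy and 1.68% in controls. By date sums they averaged 62.7 ± 59.4 CPM of Gzma with food allergy and 35.6 ± 49.4 CPM in controls. Myeloid cells averaged 39.4 ± 45.2 CPM with food allergy and 251 ± 418 CPM in controls. In controls both ranges overlapped that of ILC2s, reaching 108 CPM in plasmacytoid dendritic and 734 CPM in myeloid cells. With food allergy neither range did. Gzmb was in 17 of 350 ILC2s with food allergy and 5 of 295 in controls, with a ratio of UMIs per total of 1.63 (0.8287 to 3.39). The Gzma call was lost with DESeq2 (adjusted p = 0.295), without the date term (0.357) and without the top cells (0.199). Mcpt1, a mast cell gene, was higher by 2.30 in the same ILC2 sums, and its part was not tested. Srgn rose by 1.06, Serpina3g by 1.57 and Id2, a factor all innate lymphoid cells need, by 1.07, as 1 of 10 content genes, 1 of 5 inhibitors and 1 of 10 regulators.

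Mast cells of the Peyer's patches had 688 and 352 CPM of Gzma with food allergy and 50.1 and 0 CPM in controls. Gzma was higher by 4.36 ± 0.59 (edgeR adjusted p = 0.0337, with 0.321% of 2183 genes called, and 0.674 without the date term). Here too Gzma passed the filter on low counts only through the food allergy sums. Over all dates, 523 UMIs with food allergy and 6 in controls gave a ratio of 14.2 (6.49 to 39.0). As in the lamina propria, few cells held them: 490 UMIs were in 21 cells, 181 of them in 1 cell. Gzmb had 2147 and 1813 CPM with food allergy and 2381 and 7673 CPM in controls. It was lower by -1.03 and not called (adjusted p = 0.574), but it was called lower by -1.51 without the top cells (0.0453).

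The remaining Peyer's patch classes gave no member called between conditions. The share of genes called was 1.01% of 4450 in NK cells, 1.79% of 5803 in ILC1s, 0.275% of 3635 in ILC3s, 0.0502% of 5976 in CD8 T cells, 0.136% of 7351 in CD4 T cells and 0% of 815 in γδ T cells (4.91% at an unadjusted p under 0.05). ILC1s came nearest, with Gzma higher by 0.49 (adjusted p = 0.126); it was called with 1 gate marker more (0.00614) and without the top cells (0.00253). In CD4 T cells Nkg7 was lower by -1.02 (adjusted p = 0.699) and was called without date 3 (4.86e-06) and without a filter (0.00988). Gzma in γδ T cells was lower by -1.44 (adjusted p = 0.980) and was called lower without a filter (-1.62, adjusted p = 0.0301), without date 2 (-2.83, 0.00735) and without date 5 (-1.14, 0.0214). In NK cells Gzma was higher by 0.32 (adjusted p = 0.714) and was called without date 1 (0.28, 0.00696). The difference of the food allergy effect between lamina propria and Peyer's patches was called for no member in NK cells (0% of 1187 genes, and 3.2% at an unadjusted p under 0.05), ILC1s (0% of 2712, and 6.27%), ILC2s, ILC3s (0.0969% of 5162) or mast cells (0.167% of 2992). For Gzmb in ILC2s it was 4.39 (adjusted p = 0.101, with 0.941% of 4251 genes called, and 0.000596 without a filter).

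Among T cells of the Peyer's patches, Nkg7 and Gzma were called higher in CD8 than in CD4 T cells, Gzma unevenly. Nkg7 differed by 4.21 ± 0.15 (edgeR adjusted p = 2.56e-22, n = 14 sums, with 15.4% of 6816 genes called, 7.59% higher and 7.79% lower). Gzma differed by 3.95 ± 0.32 (adjusted p = 5.31e-12, and 0.115 with DESeq2). Of 11 granule content genes, 5 were higher in CD8 T cells, among them Ctsw by 2.05 and Crtam by 1.95, and 5 lower, among them Srgn by -0.54. Of 10 release genes, 4 were lower: Stx11, a fusion protein gene, by -2.55, Rab27a, which docks granules, by -1.04, and Vamp8 and Stx8. Of 12 regulators, Eomes by 2.37, Runx3 by 1.84 and Id2 by 0.25 were higher and Bhlhe40 and Il2ra lower. CD8 Gzma was uneven: on date 5, 23 CD8 T cells with food allergy held 839 of the 875 UMIs of all dates, and a single control cell held 389 of 960. On the other food allergy dates Gzma had 3.67 to 10.8 CPM in CD8 and 1.58 to 14.2 CPM in CD4 T cells, which overlap.

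Cultured ILC2s expressed all 5 members, and no treatment changed one past the test. The libraries had 6942739 to 21551863 expected counts. In base medium, per kilobase of exon, Gzma stood highest at 204 ± 14.96 CPM, then Nkg7 at 80.2 ± 18.1 CPM, Gzmb at 55.4 ± 16.5 CPM, Prf1 at 8.70 ± 2.15 CPM and Gzmc at 6.54 ± 3.07 CPM (SD, n = 3). Gzma, Nkg7 and Gzmb thus stood above Prf1 and Gzmc. The libraries also held NK-associated RNA, with Ncr1 at 26.2 to 98.7 CPM, Klrd1 at 7.48 to 19.0 CPM and Eomes at 3.79 to 16.6 CPM, beside the ILC2 genes Gata3 at 314 to 847 CPM and Klrg1 at 78.0 to 187 CPM. The other NK markers were low: Klra4 was at 0 in all 13 libraries, and S1pr5, Klra8, Klra9 and Itgam reached at most 1.27, 0.657, 3.01 and 3.87 CPM. Of the mast markers, Mcpt1 and Cpa3 were at 0 in 10 of 13 libraries each, while Kit had 33.5 to 87.7 CPM and Hdc 0.70 to 8.3 CPM. The part of NK or mast cells in the granule levels was not tested, and in bulk RNA fewer cells of a type and less RNA per cell cannot be told apart.

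Gzmb came nearest to a call, with CGRP. It had 145, 264, 144 and 169 CPM in the 4 libraries with CGRP and 72.0, 60.8 and 106 CPM in base medium, without overlap. The difference was 1.18 ± 0.37 (edgeR adjusted p = 0.116, with 1.49% of 12355 genes called, 1.08% higher and 0.405% lower). It was called without a filter on low counts (0.00413), with DESeq2 (0.0370) and without replicate 2 of IL-25 with CGRP (0.0284), which shares the fit. On top of IL-25, CGRP gave 221, 50.2 and 177 CPM of Gzmb, against 98.8, 64.2 and 61.8 CPM with IL-25 alone, which overlap. That difference was 1.00 (adjusted p = 0.296, with 0.631% called, 0.502% higher and 0.13% lower) and 0.0384 without replicate 2, the shallowest library.

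The other members were not called with CGRP either. Gzma had 312, 431, 220.5 and 325 CPM with CGRP and 190.1, 220.2 and 206 CPM in base medium, a difference of 0.65 (edgeR adjusted p = 0.427). The lowest CGRP library lay just above the highest base library. With IL-25, Gzma had 316, 306 and 83.4 CPM, on both sides of base medium. Both single agents were set against the same base libraries. IL-25 alone called 0.0728% of genes, IL-25 added to CGRP 0.113%, and the test of their interaction 0% (4.31% at an unadjusted p under 0.05), with no member among them. Prf1 with CGRP differed by 0.76 (adjusted p = 0.321), and Gzmc by 0.44 and Nkg7 by 0.29 were smaller.

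**Figure D4:**
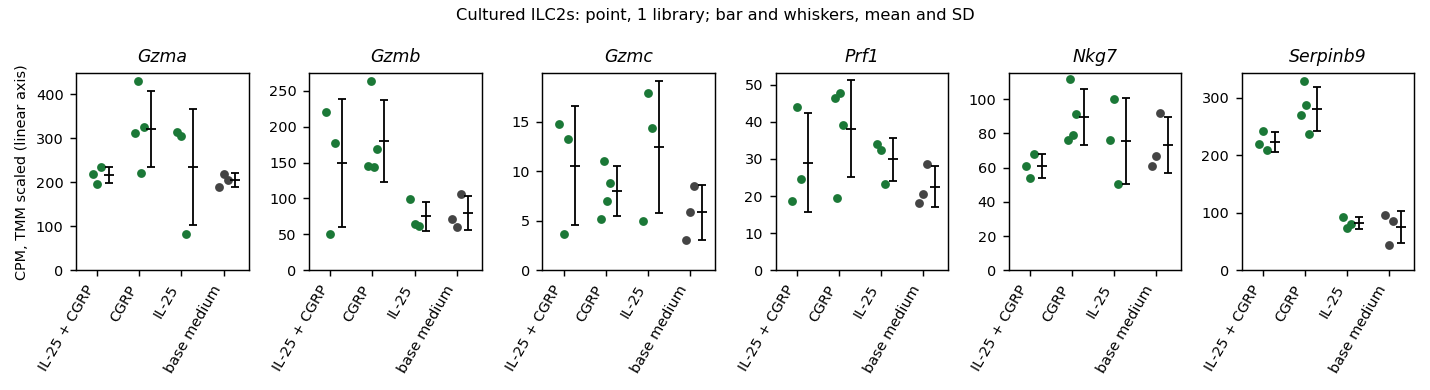
Levels in cultured ILC2s, in normalised CPM on linear axes, by culture group. Points are libraries, bars and whiskers are mean and SD; Gzmb with CGRP lies between 144 and 264 CPM, above base medium at 60.8 to 106 CPM, and Serpinb9 with CGRP lies above 237 CPM, against at most 96.3 CPM in base medium.

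CGRP did change genes of granzyme inhibitors. Serpinb9, the granzyme B inhibitor gene, had 270.4, 329, 287 and 237 CPM with CGRP and 96.3, 44.4 and 86.2 CPM in base medium. It rose by 1.89 ± 0.27 (edgeR adjusted p = 0.000251). Of 7 inhibitors, Serpinb6b also rose, by 1.56, and Serpinb1a by 1.42, and Serpina3g fell by 1.16. On top of IL-25 the same 3 rose, by 1.44, 1.63 and 1.48 for Serpinb9, Serpinb6b and Serpinb1a. Of 18 regulators, Ikzf3, a lymphocyte zinc finger factor, rose by 1.94 and Il2rb by 1.07 with CGRP, and Il2ra fell by 1.31. Of 15 granule content genes and 12 release genes, none was called. Of 7 other granzymes, 2 passed the filter, Gzmk and Gzmm, at no more than 3.66 and 2.26 CPM, and neither was called.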

How the data were processed

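Droplet single-cell libraries were aligned and counted with Cell Ranger, and bulk Smart-seq 2 libraries with Bowtie2 and RSEM, on mm10, per the submitters' processing notes, with no versions given in the sources used. The deposited single-cell values are UMI counts per gene and cell, not normalized. The deposited bulk values are expected counts per gene, per the submitters' processing notes, and were rounded to whole numbers. The members and gene lists were chosen with earlier results of these data known.

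Cells were classed by counts of detected markers, with exclusion markers at 0, and no doublet caller was run. UMI counts were summed per class over a library (lamina propria) or over a date and condition (Peyer's patches), keeping sums of at least 10 cells. Sums and bulk counts were tested over all genes with edgeR 4.0.16 (TMM, filterByExpr, quasi-likelihood test, Benjamini-Hochberg threshold 0.05) in R 4.3.3, with date as a term for single cells and library as a block between classes. A called gene passed that threshold. Log2 changes are given ± SE. Ratios of UMI counts carry exact 95% intervals, floors stand for 3 UMIs, and thinned shares are the shares expected at 1000 UMIs per cell. Alternatives were RLE size factors, no filter on low counts, DESeq2 1.42.0, no date term, other gates, the replicate block and leaving out each replicate. Besides the members, listed genes were named where they passed the test, at most 6 a list, by lowest adjusted p, and the 3 genes of most similar profile per member. Tests were tried on simulated counts.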

Additional observations from a re-analysis of the deposited data

Results flagged for a closer look

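Of 45 sets of 4 to 10 values tested for a value far from the others, 11 held one. The nominal rate of about 1 in 20 holds for separate sets of normally distributed values. Here sets share cells and some lie near 0, so that rate is no yardstick. All 11 lie in the Peyer's patches. No lamina propria group had 4 values, and of the culture groups only CGRP did, so the other groups could not be tested. In CD8 T cells with food allergy, date 5, which had 23 such cells, stood apart for Gzma at 9509 CPM (the other dates had 3.67 to 10.8 CPM), for Gzmb at 1723 CPM (others 0.917 to 12.9 CPM), for Gzmc at 158.7 CPM (others 0) and for Nkg7 at 1915 CPM (others 538 to 687 CPM). Control CD8 T cells of date 5, 10 cells, stood apart for Nkg7 at 1823 CPM (others 439 to 617 CPM). In CD4 T cells with food allergy, date 5, with 14 cells, stood apart for Gzma at 201.3 CPM (others 1.58 to 14.2 CPM) and for Nkg7 at 230.1 CPM (others 7.75 to 41.3 CPM). Date 3 of the same class, with 482 cells, stood apart for Gzmb at 15.68 CPM (others 0 to 0.792 CPM) and for Gzmc at 0.5228 CPM (others 0), from 1 UMI. In γδ T cells with food allergy, date 5 had Gzmc at 26.75 CPM (others 0, over 5 dates). In ILC1s with food allergy, date 1, with 12 cells, had Nkg7 at 2040 CPM (others 1420 to 1512 CPM).

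The food allergy effect on Gzmb in the lamina propria differed between classes in tests of the difference itself, which were added after the data were seen. ILC2s exceeded ILC3s by 6.961 on the log2 scale (edgeR adjusted p = 7.43e-08) and mast cells by 6.281 (edgeR adjusted p = 5.42e-10). Both sizes rest on 2 Gzmb UMIs in control ILC2s and are no bounds, and the p-values are no support beyond the counts themselves.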

How the results depend on the processing

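Of 1011 values under alternatives for 93 member changes, 923 kept direction and side of the threshold, 12 lost a call, 17 gained one and 59 changed sign. None of the 15 changes reported as called changed sign, and the causes were not tested.

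The sign changes were as follows, in log2. With 1 UMI of exclusion markers allowed, Gzma in lamina propria ILC1s was 0.95, higher and called, and in the Peyer's patches Gzmb in ILC1s was -0.13, Nkg7 in mast cells 0.24, Gzma in CD4 T cells 1.24 and Nkg7 in γδ T cells 0.13, none called. The values that follow were not called either. With 1 gate marker more, Nkg7 in lamina propria NK cells was -0.12, Gzma in ILC1s 0.046 and Gzmb in Peyer's patch ILC1s -0.038. Without top cells, Gzmb in lamina propria NK cells was -0.18, Gzmc in ILC3s 0.0090 and Nkg7 in Peyer's patch γδ T cells 0.039. With DESeq2, Gzmc in Peyer's patch ILC3s was 0.32, Nkg7 there -0.0048, Gzmb in CD8 T cells -0.038 and Gzmb in ILC2s against ILC3s -0.17. Without the date term, Gzmc in Peyer's patch ILC3s was 0.26, Gzma in CD8 T cells 3.90 and Gzmb in γδ T cells -0.32. Without a filter, Gzmb in γδ T cells was -0.012, and the lamina propria minus Peyer's patch difference in NK cells was 0.028 for Gzmb and 0.089 for Nkg7. With the replicate block, Gzma for IL-25 with CGRP against IL-25 was 0.027.

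Leaving out 1 library or date gave both signs for 19 changes. For IL-25 they ran from -0.11 to 0.58 for Gzma, -0.36 to 0.17 for Gzmb and -0.21 to 0.24 for Nkg7, and for IL-25 with CGRP against IL-25 from -0.52 to 0.19 for Gzma, -0.56 to 0.16 for Gzmc and -0.48 to 0.18 for Prf1. Gzmb ran from -0.69 to 0.13 against CGRP and from -0.59 to 0.22 for the interaction. In the lamina propria the ranges were -0.11 to 0.40 for Gzmb and -0.043 to 0.17 for Nkg7 in NK cells, -0.48 to 0.62 for Gzmc and -0.58 to 0.090 for Nkg7 in ILC3s, and -0.77 to 0.086 for Nkg7 in mast cells. In the Peyer's patches they were -0.33 to 0.71 for Gzmb in ILC1s, -3.73 to 1.31 for Gzma and -1.94 to 0.26 for Gzmb in CD8 T cells, -1.04 to 0.42 for Gzma in CD4 T cells, and -1.18 to 2.00 for Gzmb and -0.35 to 0.13 for Nkg7 in γδ T cells.

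Gene counts moved more.

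Without a filter on low counts, genes called were 33 for IL-25, 328 for CGRP (1 member), 225 for IL-25 with CGRP against IL-25, 74 against CGRP and 15 for the interaction. In the lamina propria they were 11 in NK cells, 61 in ILC1s, 101 in ILC3s (2 members), 341 in mast cells and 2053 for ILC2 against ILC3 (3 members). In the Peyer's patches they were 188 in ILC2s, 109 in ILC3s (1 member), 71 in mast cells, 17 in CD8, 68 in CD4 (1 member) and 2 in γδ T cells (1 member). With DESeq2 they were 24 for IL-25, 509 for CGRP (1 member), 303 for IL-25 with CGRP against IL-25 and 44 against CGRP. DESeq2 called 18 in lamina propria ILC1s, 175 in ILC2s, 21 in ILC3s and 236 for NK against ILC1. It called 0 in Peyer's patch NK cells, 9 in ILC1s, 23 in ILC2s (0 members), 4 in ILC3s, 19 in mast cells and 5 in CD4 T cells, and 1 member for CD8 against CD4 T cells. Without the date term, lamina propria calls were 14 in ILC1s, 268 in ILC2s and 2 in ILC3s, and Peyer's patch calls were 0 in NK cells, ILC1s, ILC2s (0 members), ILC3s, mast cells (0 members), CD8 and CD4 T cells. With only the groups of the contrast, IL-25 called 17 and IL-25 with CGRP against IL-25 called 157. RLE size factors gave 45 in Peyer's patch mast cells.

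With 1 gate marker more, calls were 1 in lamina propria NK cells, 5 in ILC1s, 10 in ILC3s, 123 for NK against ILC1 and 552 for ILC2 against ILC3, and 166 in Peyer's patch ILC1s (1 member) and 56 in mast cells. With 1 UMI of exclusion markers allowed, they were 9 in lamina propria NK cells (1 member), 16 in Peyer's patch mast cells and 5 in CD4 T cells, and lamina propria ILC1s had 1 member, Gzma, higher. Cells with at least 1000 UMIs gave 33 in Peyer's patch mast cells. Sums without their top Gzma and Gzmb cells, chosen after the data were seen, gave 33 in Peyer's patch ILC2s (0 members), 16 in mast cells (2 members) and 1 member in ILC1s.

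Leaving out 1 library or date at a time, genes called ranged from 3 to 11 for IL-25, 65 to 215 for CGRP (0 to 1 members), 38 to 208 for IL-25 with CGRP against IL-25 (0 to 1 members) and 5 to 27 against CGRP. In the lamina propria the ranges were 0 to 1 in NK cells, 6 to 60 in ILC1s, 292 to 604 in ILC2s, 13 to 115 in ILC3s (0 to 1 members), 36 to 250 in mast cells (1 to 2 members), 296 to 378 for NK against ILC1 and 1134 to 1219 for ILC2 against ILC3. In the Peyer's patches they were 0 to 62 in NK cells (0 to 1 members), 4 to 132 in ILC1s, 0 to 75 in ILC3s (0 to 1 members), 2 to 22 in CD8, 0 to 133 in CD4 (0 to 1 members) and 0 to 7 in γδ T cells (0 to 1 members), and 783 to 1147 for CD8 against CD4 T cells.

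Same-numbered libraries did not deviate together throughout: correlations ran from -0.188 to 0.197 in the cultures and from -0.063 to 0.224 in the lamina propria, where number 3 is another date. With the replicate block, calls were 105 for CGRP, 6 for IL-25 with CGRP against CGRP and 18 in lamina propria ILC3s, and no member's call changed.

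Not run were lamina propria mast cells with 1 gate marker more, with at least 1000 UMIs or without top cells (fewer than 10 control cells), and leaving out dates for Peyer's patch ILC2s and mast cells (no residual degrees of freedom). Depth limits Prf1 and Gzmc, with 596 and 1136 UMIs in all gated cells.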

Other observations

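T cells of the lamina propria were common in the IgDLow sort only, with 1 library a group and no test. CD4 T cells held 418 Gzma UMIs in 77 cells with food allergy and 28 in 61 control cells, a ratio per total of 10.2 with an exact interval of 6.97 to 15.6, and a single cell held 181 of the 418. CD8 T cells there held 0 UMIs of Gzma and 0 of Gzmb with food allergy and 48 of each in the control library.

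Peyer's patch NK cells of both conditions were also split by a UMI of Klrg1, a receptor of mature NK cells. Gzmb was detected in 73.2% of 108 Klrg1-positive cells and 31.1% of 807 Klrg1-negative cells, Prf1 in 33.3% of Klrg1-positive and 19.1% of Klrg1-negative cells, and Gzma in 97.2% of Klrg1-positive and 73.1% of Klrg1-negative cells. Gzmc was rare, with 0% of Klrg1-positive and 1.86% of Klrg1-negative cells. In lamina propria NK cells it was in 2.94% of Klrg1-positive and 1.08% of Klrg1-negative cells, so its direction was not constant. In the lamina propria Prf1 was in 8.82% of 34 Klrg1-positive and 8.60% of 93 Klrg1-negative NK cells, and Gzmb in 73.5% of Klrg1-positive and 58.1% of Klrg1-negative cells, at medians of 2546 UMIs in Klrg1-positive and 1821 UMIs in Klrg1-negative cells. In the Peyer's patches the median depth was 2560 UMIs in Klrg1-positive and 2700 UMIs in Klrg1-negative cells. Cells are not replicates, so no test was made.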
